A study of Bos taurus with 48 samples.

Results

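The myogenic regulatory factors and the PAX genes were followed in bovine longissimus muscle through 7 members: MYF5, MYOD1, MYOG and MYF6, which are the 4 muscle-specific basic helix-loop-helix factors, the paired-box genes PAX3 and PAX7, and the MADS-box factor MEF2C. Members were every non-control probe of the array whose gene name, or whose symbol in brackets in the probe description, equalled one of these names. The rule found 7 genes of 19821 gene names on the array, with 1 probe each among 21475 probes, and used no measured value. The name of the PAX7 probe rests on the array's description, since the RefSeq gene table used here gives that gene number no PAX7 symbol.

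RNA was hybridised to 48 Agilent arrays of 2 colours, which gave 96 channels at 13 time points from 35 animals. Piedmontese and Wagyu crosses (both to Hereford, per the study's methods) were sampled at 60, 135 and 195 days of gestation, at birth (280 days) and at 3, 7, 12, 20, 25 and 30 months, with the crosses paired on each array. Belmont Red cattle on a weight loss or a weight growth diet were sampled at diet times 0, 1 and 2, again paired on each array. Before birth there were 6 animals of each cross, at birth 3 of each, after birth 5 Piedmontese and 4 Wagyu that were sampled repeatedly, and 4 animals on each diet, of which 3 (loss) and 4 (growth) were measured at time 1 and 2 on each diet at time 2. At 60 days 1 fetus per cross was measured in 3 channels, so the spread between fetuses of a cross is not known there. The labels give all samples as biopsies of the longissimus dorsi and name no agent or genotype.

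Muscle cells are specified in a hierarchy. PAX3 and PAX7 mark the progenitors that enter the muscle lineage, and PAX7 is the usual marker of satellite cells, the stem cells that lie along adult fibres. MYF5 and MYOD1 commit cells to the lineage, MYOG drives the fusion and differentiation of committed myoblasts, and MYF6 (also called MRF4) acts in differentiation and is the family member most associated with mature fibres. MEF2C binds next to these factors on the promoters of contractile genes. MYF5 and MYF6 are neighbours in the genome, and the RefSeq gene table lists 0 genes between them.

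Each member was read by 1 oligonucleotide of 60 bases, printed in 2 spots. Its first 30 bases are given here because they show which stretch of the transcript each level stands for. No capitals are used, because no part of a probe was singled out.
MYF5: atgttgtaccatataacataaagttgtgtg
MYOD1: tttgtatgtttatacggcaggcaggcgagc
MYOG: ggcaggggctcctggggtgattaattttgt
MYF6: tcacgttacgttaatatttaggaagccaga
MEF2C: cattttcctcaccatagacttgaccccatt
PAX3: tgtttccttacaggtgcctttcattatctc
PAX7: gtgagcctgtccacacagcgtcgcatgaag
No pair of these probes shared a run longer than 9 bases over their full length. The probes were not compared with the transcripts of the other members, so binding to those is not known.

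The members divided by how visible they were. MYOD1, MYOG, MYF6 and MEF2C were well above background in 96 of 96 channels. MYF5 was well above background in 56 channels (58.3%), among them 17 of 18 before birth, 2 of 6 at birth, 26 of 48 after birth and 11 of 24 in the diet experiment. PAX7 was above it in 20 channels (20.8%) and PAX3 in 13 (13.5%). No channel of any member was saturated. Tests were restricted to probes with 24 or more such channels, so 5 of 7 members were tested among 15737 probes, and PAX3 and PAX7 only in a fit without that filter.

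Levels are log2 normalized intensities, averaged over the channels of an animal at a time, and differences are log2 differences with their standard error from limma, with p-values adjusted over all probes by Benjamini-Hochberg and called under 0.05. Levels are not compared between probes. In such bulk samples fewer cells of a type and less RNA per cell cannot be told apart. The arrays of 60, 135 and 195 days and birth shared 3 slides, whereas later ages and each diet time lay on other slides. Slide and time therefore cannot be told apart between fetal and post-natal ages, from birth to 3 months, from 20 to 25 months or between diet times.

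One animal went against its label. The Piedmontese fetus of the second array at 135 days, seen in 1 channel, had a median correlation of 0.925 with the other channels of its time, where the lowest such value among the other 95 channels was 0.959. All 9 of 9 measured muscle fibre markers were lower in it than in the other 4 fetuses of that age. ACTA1, skeletal alpha-actin, was at 10.02 against 16.73 to 17.58, MYH7, the slow myosin heavy chain, at 10.24 against 15.70 to 16.96, and TTN, titin, at 6.49 against 9.82 to 10.91. The summed level of adipocyte markers was 17.28 against 11.03 to 12.47, that of red blood cell markers 18.75 against 16.68 to 17.80, and that of satellite cell markers 15.88 against 17.68 to 17.99. Among genes chosen after their values were seen, CYP21A2 and STAR, which act in steroid hormone synthesis, were at 13.80 against 6.94 to 8.35 and at 12.88 against 7.44 to 7.90. PNMT, which makes adrenaline, was at 14.85 against 8.30 to 9.67. MYOD1 was at 9.05 in this fetus against 14.63 to 14.90 in the others, MYOG at 11.36 against 15.65 to 16.10, MYF6 at 7.34 against 10.86 to 11.42, MYF5 at 6.68 against 8.44 to 9.05, and MEF2C at 6.91 against 8.91 to 9.56. Main results that rest on this animal are given with and without it.

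**Figure D1:**
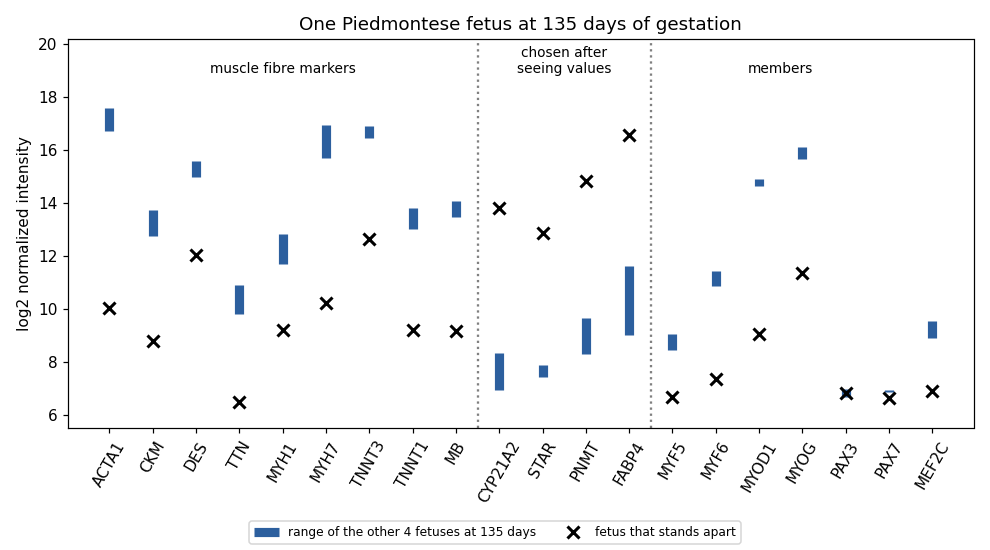
Log2 normalized intensity (vertical axis) of the muscle fibre markers, of 4 genes chosen after their values were seen, and of the 7 members at 135 days of gestation. Crosses mark the Piedmontese fetus that stands apart and bars the range of the other 4 fetuses; the cross lies below the bar for all 9 muscle markers and for 6 of 7 members, PAX3 excepted.

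**Figure D2:**
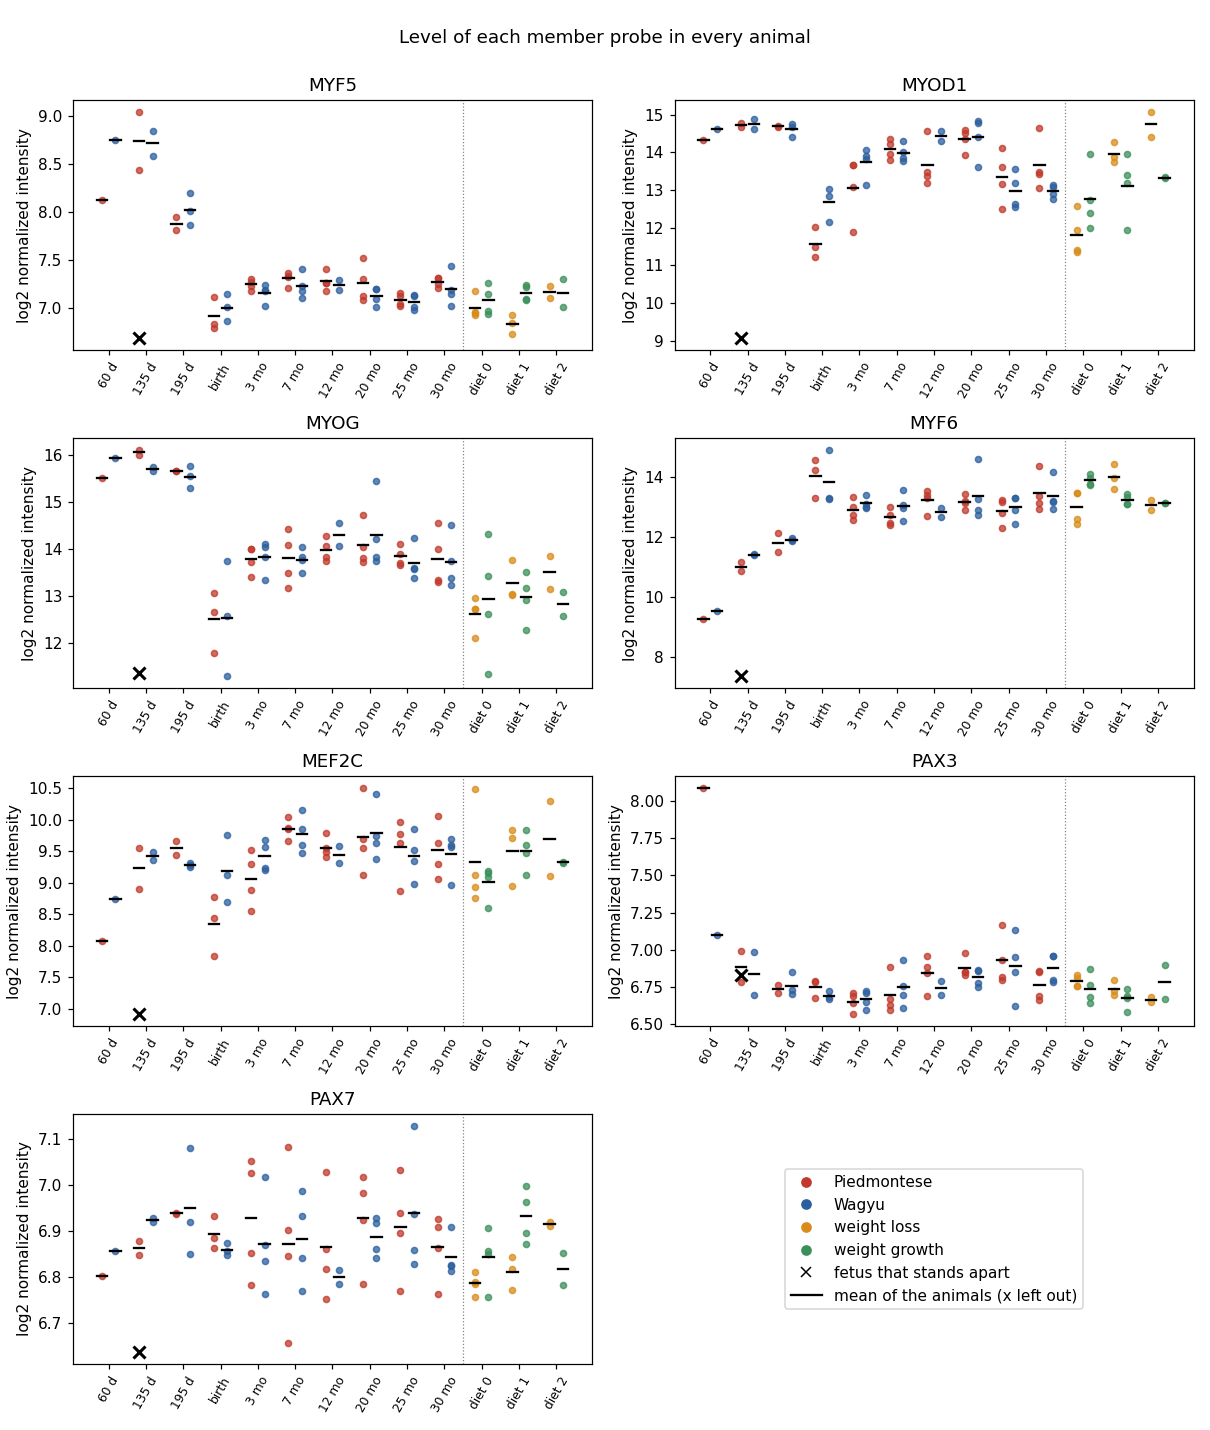
Log2 normalized intensity (vertical axis, a separate scale for each gene) of each member in every animal at the 13 time points; points are animals, coloured by cross or diet, short lines are means of a cross or diet, and the cross is the fetus that stands apart, left out of the means. MYF5, MYOD1 and MYOG are high before birth and have their lowest time mean at birth, and MYF6 climbs to its highest time mean, 13.93, at birth. Each of these extremes lies within the pooled standard deviation of the next time mean, which is a diet time. PAX3 has its highest mean at 60 days. Its Piedmontese fetus (8.09) lies above all later animals, and its Wagyu fetus (7.10) lies below the highest animal of 25 months (7.17).

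MYF5, the earliest of the muscle-specific factors in the embryo, was high in the fetus and low from birth on. It stood at 8.12 and 8.75 at 60 days, and at 9.05, 8.44, 8.84 and 8.59 in the 4 fetuses of 135 days without the one that stands apart. At 195 days the 5 fetuses were at 7.81, 7.94, 8.19, 8.01 and 7.86, and at birth the 6 calves were at 7.11, 6.83, 6.79, 7.14, 6.86 and 7.00. The 195-day and birth groups did not overlap. MYF5 fell by 0.99 ± 0.16 between them (adjusted p = 1.9e-07), a difference against birth levels of which few were measured above background. The background correction adds a constant to every spot and compresses such low signals: with the scanner software's processed signals the same step was -3.45 (adjusted p = 1.0e-09). Only 2 of 6 birth channels were well above background, so its low levels have no firm order. From birth to 30 months and in the diet experiment, all its time means lay between 6.96 and 7.27, and no neighbouring pair of these 10 means differed by more than the pooled standard deviation of 0.13. The means of 195, 60 and 135 days followed, each step larger than that spread, which pools all times. At 135 days the standard deviation was 0.27 without the fetus that stands apart, and the 60- and 135-day groups overlapped. The step from 60 to 135 days was not called (limma, adjusted p = 0.95, and 0.057 without that fetus), so the order of these ages is not firm.

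MYOD1, the factor that can turn other cell types into muscle, stayed high through gestation and dropped at birth. At 60 days it was at 14.34 and 14.61, and at 135 days at 14.79, 14.69, 14.90 and 14.63 without the fetus that stands apart. The 195-day fetuses lay at 14.71, 14.68, 14.76, 14.67 and 14.41, a spread of 0.14 (SD, n = 5). At birth the 6 calves were at 12.01, 11.50, 11.21, 12.85, 12.15 and 13.02, all below every fetus of 195 days and more widely scattered (SD 0.72). The fall was 2.53 ± 0.50 (adjusted p = 1.4e-05), or 5.79-fold. Such levels were not particular to these ages. The birth mean, 12.12, lay near that of diet time 0, 12.29, with a pooled standard deviation of 0.53. The 20-month mean, 14.38, lay near that of 60 days, 14.48.

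MYOG, myogenin, also fell between 195 days and birth. It was at 15.51 and 15.92 at 60 days, at 16.10, 16.00, 15.75 and 15.65 at 135 days without the fetus that stands apart, and at 15.64, 15.64, 15.77, 15.54 and 15.30 at 195 days. At birth it was at 12.65, 13.06, 11.79, 12.58, 11.29 and 13.75, so that again no calf reached the lowest fetus of 195 days. The fall of 3.07 ± 0.46 (adjusted p = 5.2e-08) amounts to 8.40-fold. The birth mean, 12.52, lay near that of diet time 0, 12.77, with a pooled standard deviation of 0.56.

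MYF6 ran the other way. Its level was 9.27 and 9.52 at 60 days, then 10.86, 11.16, 11.40 and 11.42 at 135 days without the fetus that stands apart, and 12.14, 11.48, 11.98, 11.86 and 11.89 at 195 days. At birth it reached 14.56, 13.30, 14.22, 13.26, 14.91 and 13.31. With that fetus, at 7.34, left out, these 4 groups did not overlap, and each was higher than the one before. The rise from 195 days to birth was 2.07 ± 0.36 (adjusted p = 1.1e-06), 4.19-fold. The birth mean, 13.93, was followed by that of diet time 1, 13.62, with a pooled standard deviation of 0.46. With the fetus that stands apart left out of the time means, MYF6 ranged over 4.53 on the log2 scale, or 23.1-fold, between 60 days and birth. The same range was 3.36 for MYOG, 2.63 for MYOD1, 1.78 for MYF5, 1.40 for MEF2C, 0.94 for PAX3 and 0.13 for PAX7. The background correction compresses low signals, so the ranges of MYF5, PAX3 and PAX7 cannot be ranked against the others. With processed signals the MYF5 step from 195 days to birth alone was -3.45.

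MEF2C moved less. It was at 8.07 and 8.75 at 60 days, between 8.91 and 9.56 in the 4 fetuses of 135 days, between 9.25 and 9.66 at 195 days, and at 8.78, 8.44, 7.85, 9.76, 8.69 and 9.11 at birth, where the groups overlapped. Its difference from 195 days to birth was -0.64 ± 0.30 (adjusted p = 0.052), and 0.026 was the adjusted p without the fetus that stands apart. With the 13 time means of MEF2C sorted by size, no gap between neighbours in that order exceeded its pooled standard deviation of 0.41.

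From 195 days to birth 3 of the 5 tested members fell and 1 rose, beside 30.2% of all probes that fell and 34.8% that rose; both shares are high, so the count by itself sets the members little apart. The 3 slides that held both ages each gave the same direction for these 4 members. For MYOG the differences within a slide were -3.15, -3.30 and -2.77, for MYOD1 -2.29, -2.72 and -2.59, for MYF5 -0.88, -1.05 and -1.01, and for MYF6 1.82, 2.42 and 1.79. Centring each channel on its median instead moved the median of all probes by 0.14 for this step and left the 4 calls, with MYOG at -2.41, MYOD1 at -1.98, MYF5 at -0.80 and MYF6 at 2.50.

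**Figure D3:**
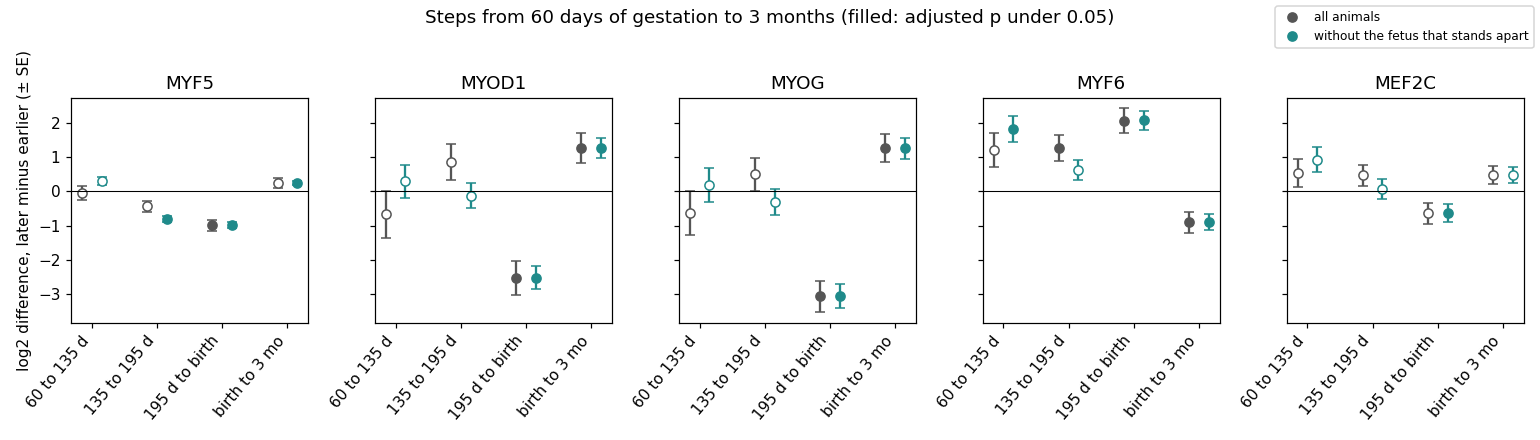
Log2 difference between neighbouring times, later minus earlier, with its standard error (vertical axis) for the 5 tested members; grey points are all animals, teal points the fit without the fetus that stands apart, and filled points have an adjusted p under 0.05. MYOG and MYOD1 drop by 3.07 and 2.53 from 195 days to birth while MYF6 rises by 2.07, and the steps on either side of 135 days change with that 1 fetus.

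The calls of the earlier steps changed with the fetus that stands apart and in a fit of single channels with slide as a term. From 60 to 135 days limma called 0 of 5 tested members, beside 6.91% of probes that rose and 7.54% that fell. MYF6, the 1 member with an unadjusted p under 0.05, differed by 1.20 ± 0.49 (adjusted p = 0.095). Without that fetus MYF6 rose by 1.83 ± 0.38 (adjusted p = 0.00018), beside 8.44% of probes up and 8.68% down, and MYOD1 and MYOG changed sign, from -0.67 and -0.62 to 0.29 and 0.18, none of them called. From 135 to 195 days 1 of 5 members was called, MYF6 with a rise of 1.26 ± 0.38 (adjusted p = 0.011), beside 10.2% of probes up and 11.3% down. Without the fetus MYF6 was no longer called (0.63 ± 0.29, adjusted p = 0.13) although its groups did not overlap, and MYF5 fell by 0.80 ± 0.09 (adjusted p = 2.6e-10), where 9.46% of probes rose and 10.7% fell. MYF5 had been at -0.44 ± 0.17 (adjusted p = 0.051) with all animals. With slide as a fixed term and all animals MYF6 was called from 60 to 135 days (1.19 ± 0.36, adjusted p = 0.0088) and MYF5 from 135 to 195 days (-0.41 ± 0.14, adjusted p = 0.019). That fit took single channels, several of them from the same fetus, as its units, with the animal as a random block. It thus differs from the main fit in more than the slide term.

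After birth the members moved partly back. From birth to 3 months MYOD1 rose by 1.28 ± 0.44 (adjusted p = 0.014) and MYOG by 1.26 ± 0.41 (adjusted p = 0.0087), while MYF6 fell by 0.90 ± 0.31 (adjusted p = 0.015). That is 2 members up and 1 down of 5, beside 22.6% of probes up and 24.6% down. At 3 months MYOD1 lay between 11.88 and 14.07 with a median of 13.66, MYOG between 13.34 and 14.11 with a median of 13.90, and MYF6 between 12.57 and 13.41 with a median of 12.99. All 3 overlapped with their birth values. The calls of MYOD1 (0.97, adjusted p = 0.17) and MYOG (0.96, adjusted p = 0.19) were lost with median centring, and that of MYF6 without the first array of every time (-0.91, adjusted p = 0.062). Without the fetus that stands apart, MYF5 was also called, with a rise of 0.25 ± 0.07 (adjusted p = 0.0036), which gave 4 of 5 members beside 48.9% of probes called in either direction. With processed signals and all animals MYF5 rose by 1.44 ± 0.39 at this step (adjusted p = 0.0020).

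Averaged over all 3 fetal ages and all 6 post-natal ages, MYF5 and MYOG were lower after birth and MYF6 and MEF2C higher. Fetal and post-natal samples lay on different slides, so slide and time cannot be told apart in this comparison. MYF5 was lower after birth by -1.05 ± 0.10 (adjusted p = 9.7e-15, and -2.31 with processed signals) and MYOG by -1.58 ± 0.29 (adjusted p = 2.2e-06), while MYF6 was higher by 2.48 ± 0.23 (adjusted p = 2.0e-15) and MEF2C by 0.63 ± 0.19 (adjusted p = 0.0019). For MYF6 the 46 post-natal values, from 12.29 to 14.62, lay above all 12 fetal ones. MYOD1 differed by -0.59 ± 0.32 (adjusted p = 0.083), and without the fetus that stands apart it was lower by -0.90 ± 0.21 (adjusted p = 0.00013). Without that fetus MYOG was at -1.84, MYF5 at -1.17, MYF6 at 2.27 and MEF2C at 0.50, all still called. With all animals 2 members rose and 2 fell of 5, beside 40.8% and 38.1% of all probes. Median centring, which moved the median of all probes by 0.11, brought the MYOG difference to -0.98 (adjusted p = 0.0056).

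Among the 6 post-natal ages MYOD1 was the member that passed the F-test, with age means spanning 1.22 (adjusted p = 0.0093), or 1 of 5 members beside 61.5% of all probes. Its median was 13.66 at 3 months, 13.99 at 7, 13.90 at 12, 14.46 at 20, 13.16 at 25 and 13.11 at 30 months. The ranges were 13.61 to 14.84 at 20 months and 12.50 to 14.12 at 25 months, so they overlapped, and these ages lay on different slides. Over the 4 ages that shared slides the span was 0.98 with an adjusted p of 0.11, where 37.8% of all probes were called. The call was also lost without the third (1.21, adjusted p = 0.059) and without the fourth (1.06, adjusted p = 0.20) array of every time. MYOG spanned 0.43 (adjusted p = 0.72), MYF6 0.55 (adjusted p = 0.30), MEF2C 0.56 (adjusted p = 0.15) and MYF5 0.19 (adjusted p = 0.63). With median centring, which moved the median span of all probes by 0.35, MYF6 spanned 1.62 (adjusted p = 0.016) and MEF2C 0.86 (adjusted p = 0.037), and both were called. Without the fetus that stands apart MYF5 was called as well (adjusted p = 0.040), beside 63% of probes.

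PAX3 and PAX7 were mostly at the limit of the array. PAX3 was well above background in 6 of 6 channels at 60 days, in 2 of 6 at 135 days and 1 of 6 at 195 days, and in none at birth, 3, 12 or 20 months or at any diet time. It stood at 8.09 in the Piedmontese and 7.10 in the Wagyu fetus of 60 days, above the range of 6.69 to 6.99 at 135 days. In the fit without the filter PAX3 fell by 0.74 ± 0.10 from 60 to 135 days (adjusted p = 8.9e-09), where 12.6% of probes were called, a difference against 135-day levels mostly not well above background. Each cross had 1 fetus at 60 days. The error thus comes from other times, and that p-value does not measure the spread between fetuses there. Against the 7 times with no channel above background, the PAX3 mean over the 2 fetuses of 60 days (7.60) was higher. The bound was at least 1.69-fold for 20 months and at least 1.88-fold for 3 months, with the other 5 between them. These bounds are for that mean and not for each fetus: the Wagyu fetus, at 7.10, was below the highest animal of 25 months, at 7.17. Each bound took the higher of the probe's own signal and the lowest signal of any probe well above background, and it is open to dye bias. For 20 months the own signal was the higher, so that bound is the ratio of the measured means. The bounds do not include the spread between animals. PAX3 was also lower in post-natal than in fetal samples by -0.28 ± 0.04 (adjusted p = 5.3e-08, 65.7% of probes called) and differed over the post-natal ages by a span of 0.25 (adjusted p = 0.00052, 49.8% called). Only 4 of 48 post-natal channels were above background, so the sizes of these differences are not firm.

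PAX7, the satellite cell factor, was not well above background in any channel at 60 days and was so in at most 3 channels at any time. Its time means lay between 6.81 and 6.94, a range of 0.13 beside a pooled standard deviation of 0.09, and no comparison called it in the fit without the filter. At this signal a change of PAX7 was not detectable. Markers of satellite cells other than the PAX genes were measurable, with a summed level of 17.52 to 17.71 at 195 days and 15.66 to 16.16 at birth.

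The crosses were compared because Piedmontese cattle are heavily muscled and Wagyu cattle deposit much fat within the muscle. In the fit with the filter 0 of 5 members differed between them in the fetus (0.896% of all probes called), 0 at birth (1.61%) and 0 over the 6 post-natal ages (0.0127%). At an unadjusted p under 0.05 limma gave 1 member in the fetus, MYF5, 1 at birth, MEF2C, and 0 after birth. MYF5 was lower in Piedmontese fetuses, by -0.48 ± 0.17 (adjusted p = 0.33), and with the array as a replicate block by -0.47 ± 0.11 (adjusted p = 0.0084). That second fit had no animal block, and all its arrays at 60 days held the same fetus of each cross. Repeated channels of 1 fetus thus counted as replicates in it. Without the fetus that stands apart the difference was -0.23 ± 0.09 (adjusted p = 0.55). At birth MYOD1 was at 12.01, 11.50 and 11.21 in Piedmontese and at 12.85, 12.15 and 13.02 in Wagyu calves. These did not overlap, and the difference of -1.10 ± 0.67 was not called (adjusted p = 0.54). MEF2C at birth differed by -0.84 ± 0.40 (adjusted p = 0.35). Over the post-natal ages the differences of the 5 members lay between -0.08 and 0.07. PAX3 was called in the fetus without the filter, higher in Piedmontese by 0.33 ± 0.07 (adjusted p = 0.0019, 1.81% of probes called), a value that rests on the single fetus of each cross at 60 days.

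The diet experiment compared a weight loss with a weight growth diet at each of its times, and the labels do not say what was fed at time 0. No member was called between the diets by limma at time 0 (0 of 5, beside 7.33% of probes called), at time 1 (0 of 5, beside 25.8%) or at time 2 (0 of 5, beside 0.0445%). At an unadjusted p under 0.05 there was 1 member at time 0, MYF6, and 0 at times 1 and 2. MYF6 was at 13.48, 12.43, 12.60 and 13.47 on the weight loss diet and at 13.72, 13.77, 13.96 and 14.11 on the growth diet at time 0. At time 1 it was at 14.43, 13.98 and 13.60 on weight loss and at 13.10, 13.09, 13.42 and 13.35 on growth. At time 2 it was at 13.23 and 12.89 against 13.13 and 13.13. Thus all weight loss animals lay below all growth animals at time 0 and above them at time 1. The differences were -0.89 ± 0.41 (adjusted p = 0.20), 0.73 ± 0.44 (adjusted p = 0.24) and -0.11 ± 0.57. The change of the difference from time 0 to time 1 was itself tested and was 1.62 ± 0.53 (adjusted p = 0.021), 1 of 5 members beside 20.9% of probes. It was 1.65 (adjusted p = 0.0017) without the fetus that stands apart, and not called with processed signals (1.64, adjusted p = 0.054), with median centring (2.05, adjusted p = 0.34), without the animal block (1.65, adjusted p = 0.059) or without the first array of every time (1.40, adjusted p = 0.17).

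MYOD1 gave a like picture with more scatter. On weight loss it was at 11.41, 11.93, 12.58 and 11.34 at time 0, at 14.27, 13.89 and 13.74 at time 1 and at 15.08 and 14.42 at time 2. On the growth diet it was at 12.74, 11.99, 12.39 and 13.96, then at 13.41, 13.96, 13.19 and 11.92, and then at 13.33 and 13.33. The groups overlapped at times 0 and 1 and did not at time 2, with 2 animals each. The change of the diet difference from time 0 to 1 was 1.87 ± 0.74 (adjusted p = 0.062). Without the fetus that stands apart, whose spread enters every comparison, it was 1.90 ± 0.50 (adjusted p = 0.0040), so that MYOD1 joined MYF6 in 2 of 5 members beside 22.1% of probes. MYOG, at 0.56 ± 0.68, and MEF2C, at -0.37 ± 0.44, were not called.

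MYF5 at time 1 was at 6.92, 6.85 and 6.73 on weight loss, where 0 of 4 channels were well above background, and at 7.22, 7.24, 7.09 and 7.08 on growth, where 3 of 4 were. The measured growth mean, 7.16, was 1.25-fold above the measured loss mean, 6.83. The difference, weight loss minus growth, was -0.33 ± 0.20 by limma (adjusted p = 0.23). Without the fetus that stands apart it was -0.32 ± 0.10 (adjusted p = 0.014, 1 of 5 members beside 27.2% of probes). From time 1 to time 2 the diet difference changed in 0 of 5 tested members by limma, also at an unadjusted p under 0.05, beside 8% of probes.

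**Figure D4:**
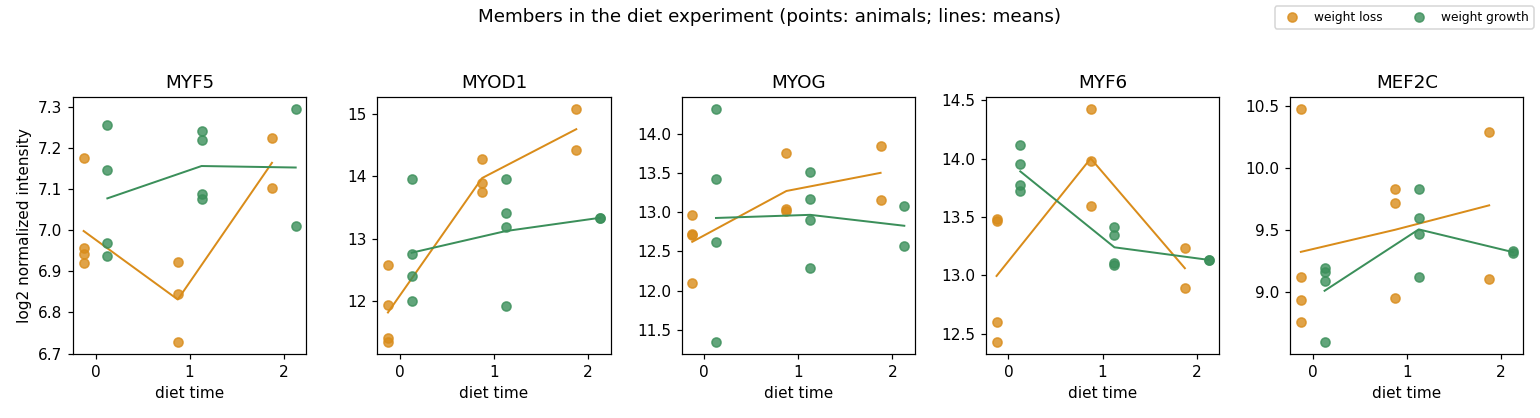
Log2 normalized intensity (vertical axis, a separate scale for each gene) of the 5 tested members against diet time, with points for animals and lines for means on the weight loss and weight growth diets. For MYF6 all weight loss animals lie below the growth animals at time 0 and above them at time 1, and at time 2 each mean stands for 2 animals.

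Other genes of the myogenic network were read from lists chosen by function, with 1 probe for each gene; ACTA1, CKM, DES, CDH15 and HEYL each stand on 2 of them. From 195 days to birth, where all probes had a median of 0.06, 13 of 24 tested differentiation genes known as targets of the myogenic factors fell and 2 rose (median -0.52). The largest falls were those of MYL4, the embryonic light chain of myosin, which fell by 7.90 (limma, adjusted p = 6.1e-29), and MYH3, embryonic myosin heavy chain, which fell by 7.45 (adjusted p = 4.4e-20). CHRNE, the adult subunit of the acetylcholine receptor, rose by 1.62 and CKM, muscle creatine kinase, by 1.27. Of 9 muscle fibre markers 5 rose and 0 fell (median 1.23), with TTN higher by 1.75 and MB, myoglobin, by 1.56.

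Of 15 satellite cell and progenitor markers 13 fell and 2 rose (median -1.38): NES, the intermediate filament nestin, fell by 4.30 and HEYL, a Notch target, fell by 2.75, while SDC4, syndecan 4, rose by 1.37 and FOXC2 by 0.57. Of 21 genes of the signals that act on myogenesis 15 fell and 2 rose (median -1.13). NOTCH3 fell by 3.97 (limma, adjusted p = 1.5e-27) and DLK1, a Notch pathway ligand, fell by 2.78, whereas FZD7, a Wnt receptor, rose by 0.65 and its ligand WNT7A by 0.47. Of 8 proliferation markers 7 fell and 0 rose, where TOP2A fell by 3.30 and CDC20 fell by 2.34. Markers of other cells in the biopsy moved at the same step: 7 of 8 fibroblast markers fell and 0 rose (median -2.78), 7 of 8 endothelial markers fell and 1 rose (median -1.43), and 4 of 5 red blood cell markers fell and 0 rose (median -3.89). The summed level of the fibroblast markers was 16.93 to 17.71 at 195 days and 14.62 to 15.49 at birth, and that of the blood markers 16.74 to 17.83 and 11.28 to 12.21. Of 5 adipocyte markers 1 rose, of 8 immune markers 3 rose and 1 fell, and of 5 nerve markers 2 fell. The part of these cell types in the steps of the members was not tested.

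Among 18 tested E proteins and opponents of the bHLH factors 8 fell and 3 rose (median -0.33). MDFI, an inhibitor of the MyoD family, fell by 2.44, HEYL is also on this list, and the repressors BHLHE41 and SNAI1 rose by 1.82 and 0.52. Of 10 MEF2 genes and cofactors 4 fell, led by SRF (-1.49) and VGLL4 (-1.20), and 2 rose, MEF2A (0.94) and HDAC5 (0.58). Of 9 regulators that act beside or upstream of the PAX genes 4 rose and 3 fell, with LBX1 at 1.84 and MEOX2 at -1.60. Against the background of 34.8% up and 30.2% down, the share that fell was highest in the satellite cell, proliferation, endothelial and fibroblast lists.

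**Figure D5:**
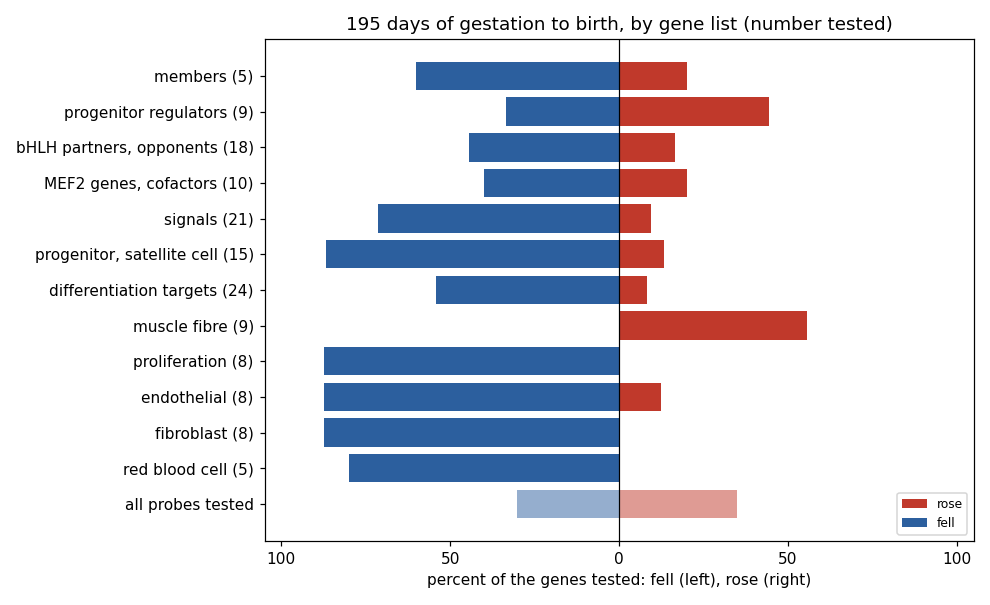
Share of the tested genes of each list that fell (blue, left) or rose (red, right) from 195 days of gestation to birth, in percent on the horizontal axis, with the number tested in brackets. The satellite cell list has 13 of 15 genes to the left, the muscle fibre list has 5 of 9 to the right and none to the left, and the pale bars are all probes (30.2% fell, 34.8% rose).

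The lists read as follows in the other comparisons. Among all probes 6.91% rose and 7.54% fell from 60 to 135 days, and 10.2% and 11.3% from 135 to 195 days. Without the fetus that stands apart these shares were 8.44% and 8.68%, then 9.46% and 10.7%. From 60 to 135 days 2 of 24 target genes rose and 2 fell, and without the fetus that stands apart 11 rose and 1 fell. From 135 to 195 days 10 rose and 1 fell, and without that fetus 9 rose and 6 fell. From birth to 3 months, when MYOD1 and MYOG rose, 2 target genes rose and 4 fell, CHRND by -1.43 and MYBPH by -1.44, while CDKN1C and CDKN1A, inhibitors of the cell cycle, rose by 0.65 and 0.60. Among the signals 4 of 21 rose and 5 fell at that step. As 22.6% of all probes rose and 24.6% fell there, the counts set the targets and signals little apart. NOTCH3 rose by 1.48 and MSTN, myostatin, which restrains muscle growth, by 1.24, whereas its antagonist FST, follistatin, was at -1.51 and IGF2, a fetal growth factor, at -1.13. Of the MEF2 list 5 of 10 rose and 0 fell, led by HDAC9 (1.17) and VGLL2 (1.06), and ID1, an inhibitor that binds E proteins, rose by 1.34.

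Between fetal and post-natal samples 17 of 21 signals were lower after birth and 2 higher (median -0.88, all probes 0.03), led by IGF2 (-3.61) and GLI3 (-2.32), a mediator of Hedgehog signals. Beside these counts, 38.1% of all probes were lower and 40.8% higher after birth. Of the 15 satellite cell markers 11 were lower and 2 higher, with NES at -3.44 and SDC3 at -2.77. Of the 18 partners and opponents 11 were lower and 3 higher, with MDFI at -3.96, TWIST1 at -2.24, BHLHE41 at 3.11 and BHLHE40 at 2.44. Of the 10 MEF2 genes and cofactors 6 were higher, as MEF2C was, with MEF2A at 1.43 and MEF2D at 1.21, and 3 were lower. Of the 9 muscle fibre markers 8 were higher and 0 lower (median 2.83). Between the crosses 2 of 21 signals were called at birth, beside 1.61% of all probes. These were WNT5A at -0.90 (limma, adjusted p = 0.018) and NOTCH3 at -0.91 (adjusted p = 0.035), both lower in Piedmontese calves. None of the other lists of the network had a called gene in any cross comparison.

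Where the diet difference of MYF6 changed from time 0 to time 1, 4 of 24 target genes changed upwards and 5 downwards (median -0.29, all probes 0.01). Among all probes 20.9% were called at this step, in either direction. ACTA1 changed by -5.62, weight loss minus growth (adjusted p = 3.2e-08) and MYBPH, a myosin-binding protein, by -2.08, whereas CHRND, the delta subunit of the acetylcholine receptor, changed by 1.77 and DES, desmin, by 1.49. Among satellite cell markers SDC4 (2.54) and CDH15, M-cadherin (1.38), went up with MYF6, and HEYL (-2.30) and VCAM1 (-1.78) went down, with 2 of 15 called up and 3 down. Of the E proteins and opponents 2 were up and 3 down, with TCF3, which pairs with the myogenic factors, at 1.19. Of 8 fibroblast markers 7 were called down (median -1.73) and of 8 proliferation markers 6. The summed level of the fibroblast markers ranged from 14.04 to 17.34 at time 0 and from 13.35 to 16.88 at time 1, and the part of these cell types in the change of MYF6 was not tested.

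Across the 26 conditions (a cross or diet at a time), whose means share slides and animals, MYF5 and MYF6 ran opposite, with r = -0.87 over all conditions, -0.80 over the 8 up to birth, -0.05 over the 12 post-natal ones and -0.62 over the 6 of the diet experiment. MYOD1 and MYOG ran together, with r = 0.74, 0.94, 0.78 and 0.95 in the same order. MYF5 and MYOG correlated at 0.87 over all conditions, and at 0.91, 0.06 and -0.03 in the subsets, so that their likeness rested on the contrast of fetal and later samples. With median centring the values of these 3 pairs over all conditions were -0.89, 0.67 and 0.64, and without the fetus that stands apart -0.87, 0.79 and 0.90.

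The genes whose condition means followed each member most closely, among named genes that passed the filter, were CHODL, CKS1B and ANKRD50 for MYF5 (r = 0.96 each), and VBP1, TRIM54 and SLC20A2 for MYF6 (r = 0.96 each). MYOG was followed by OTUB2, FZD2 and TCEA2 (0.93, 0.93 and 0.92), MYOD1 by SHROOM3, ZNF174 and KLHL28 (0.81, 0.76 and 0.75), and MEF2C by SLN, STBD1 and N4BP1 (0.87, 0.86 and 0.86). For PAX3 they were RGS17, HS3ST3A1 and CNMD (0.96 each), which over the 12 post-natal conditions were at -0.23, 0.74 and -0.66. None is given for PAX7, which was mostly at background. Without the fetus that stands apart the values of these 18 genes lay between 0.77 and 0.97. Over the 12 post-natal conditions alone CHODL and MYF5 correlated at 0.20, TRIM54 and MYF6 at 0.52, and FZD2 and MYOG at 0.59.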

How the data were processed

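Intensities of 48 Agilent arrays of 2 colours were used. The authors deposited each array's scanner output, made with Agilent Feature Extraction 9.5.1 per the submitters' processing notes, and its mean signal and background intensity columns were read. The table of the authors' processed values for the whole series was not used. The members, lists and tests were chosen with earlier results of these data known. With limma 3.58.1 in R 4.3.3, background was corrected by normexp with an offset of 50, arrays were normalized by loess within and Aquantile between arrays, outlier-flagged spots and controls were left out, the spots of a probe were averaged, a dye effect per probe, taken from the within-array ratios, was removed, and the channels of an animal at a time were averaged into 83 values. Groups and animals came from the labels.

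Probes well above background in at least 24 of 96 channels numbered 15822, of which 15737 had complete values and were tested. Between 49.9% and 76.4% of spots per channel were well above background, and the number of arrays limits the precision. One limma fit held a coefficient for each of 26 conditions and the animal as a random block (consensus correlation 0.261), with two-sided tests, an F-test over the post-natal ages, and Benjamini-Hochberg adjustment. The p-values measure the spread between animals as labelled. At 60 days, with 1 fetus per cross, that spread is taken from the other conditions. Replicate numbers follow array order and were not used to pair animals, which were matched across times by their labels. Both arms of a cross or diet comparison share arrays, but the main fit had no array term. The array served as the replicate block only in an alternative fit of within-array ratios, which had no animal block.

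All 7 member probes are named. Of the called genes of a list, up to 2 per direction are named by size of change, plus list genes named for another comparison, and for each member but PAX7 the 3 genes most correlated with it over the conditions. Some list genes that this rule picks are not reported here. The scripts were tested on simulated data in which 200 of 15737 probes changed by 1 on the log2 scale: 76.0% were recovered from 60 to 135 days (6 false calls), 92.0% from 195 days to birth (9), 97.5% between the crosses after birth (11) and 85.0% between the diets at time 1 (12). Alternatives were the processed signals, median centring, quantile normalization, no or a stricter filter, no animal block, slide or array as a block, no dye correction, a pair of similarly named animals counted as 1, and each array left out in turn.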

Additional observations from a re-analysis of the deposited data

Results flagged for a closer look

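In 84 groups of 4 to 8 animals, 1 member at 1 time each, 13 had an animal whose gap to the nearest other was large for the range of the group by Dixon's criterion, and chance gives about 1 in 20. The Piedmontese fetus that stands apart at 135 days was the lowest for 6 of 7 members, with MYF5 at 6.68, MYF6 at 7.34, MYOD1 at 9.05, MYOG at 11.36, MEF2C at 6.91 and PAX7 at 6.64. The other 7 came from different times. The lowest animals were a Wagyu at 3 months for MYF5 (7.02), a Wagyu fetus at 195 days for MYOD1 (14.41) and a Piedmontese at 3 months for MYOD1 (11.88). The highest were a Wagyu at 20 months for MYF6 (14.62), a Piedmontese at 30 months for MYOD1 (14.65), a weight loss animal at diet time 0 for MEF2C (10.48) and a growth animal at diet time 2 for PAX3 (6.90), where no channel was well above background.

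The difference between the diets in MYF6 changed from time 0 to time 1 by 1.62 (limma, adjusted p = 0.021), with weight loss animals below growth animals at time 0 and above them at time 1, in 4 against 4 and in 3 against 4 animals.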

How the results depend on the processing

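Of the 5 tested members, 4 to 5 were called from 195 days to birth and from prenatal to post-natal under every alternative run, and no called difference turned its direction. Slide as a fixed term was not run from prenatal to post-natal, where slides differ between the ages. Other counts of called members moved, and unless a cause is named it was not tested. From 60 to 135 days, 0 became 1 without the filter (PAX3 then enters), with slide as a fixed term and without the fetus that stands apart (0 to 1 when 1 array of every time was left out). From 135 to 195 days, 1 became 0 with median centring and 2 without the animal block or with slide as a fixed term (1 to 1 when 1 array of every time was left out). The called member was not always the same. Without the second array of every time MYF6 (0.80) was no longer called and MYF5 (-0.73) was, as also happened without the fetus that stands apart. From birth to 3 months, 3 became 1 with median centring and 4 with processed signals or without the fetus (2 to 3 when 1 array of every time was left out). Over the post-natal ages, 1 became 3 with median centring (MYF6 and MEF2C are added) and 2 without the filter or without the fetus. It became 0 over the 4 ages that share slides, beside 37.8% of all probes (0 to 1 when 1 array of every time was left out). Between the crosses in the fetus, 0 became 1 without the filter, with slide as a fixed term and with the array as a replicate block. The replicate block fit had no animal block, so repeated channels of a fetus counted as replicates, and it changed no other call. Between the diets at time 1, 0 became 1 without the fetus. For the change of the diet difference from time 0 to 1, 1 became 0 with processed signals, with median centring and without the animal block, and 2 with slide as a fixed term and without the fetus (0 to 2 when 1 array of every time was left out). The correlation of MYF5 with MYOG, 0.87 over all conditions, was -0.03 (-0.0349) over the 6 of the diet experiment. Leaving out the fetus and using the 4 shared-slide ages were chosen after seeing the data. Signals near background limit PAX3, PAX7 and, from birth on, MYF5.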
